A study of Homo sapiens with 20 samples.

Results

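The insulin-like growth factor (IGF) transcripts of a neural differentiation time course comprised 10 genes: the ligand IGF2, the receptors IGF1R and IGF2R, and the binding proteins IGFBP1 to IGFBP7. They were chosen by name among the 20237 protein-coding records of the expression table, 1 record for each symbol, out of 38369 records in all. Neural progenitor cells derived from H1, a human embryonic stem cell line, were kept on Matrigel with FGF (day 0), then switched to a medium with BDNF and without FGF and collected on days 1, 2, 4, 5, 11 and 18. All groups came from this 1 line, and the labels name no genetic change in any of them. Poly(A) RNA of 20 samples was sequenced, 3 for each day and 2 for day 5. The switch of medium also removed the N2 supplement and DMEM/F12 and raised the concentration of the B27 supplement. The comparison of day 1 with day 0 thus spans the loss of FGF, the gain of BDNF, changed supplements and a new basal medium. Cells for days 5, 11 and 18 were replated on poly-D-lysine and laminin at day 4, so the comparison of day 5 with day 4 also spans replating. The table gives 1 FPKM value (fragments per kilobase of transcript, scaled to the number of mapped fragments) for each record on each day, pooled over all samples of the day. All FPKM values below are these pooled values as deposited. There is thus no spread between replicates, no standard error and no test here, the depth is unknown, and every difference is described by its size alone.

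IGF1 and IGF2 are secreted ligands that act through IGF1R, a receptor tyrosine kinase that signals through IRS proteins to PI3K, AKT and mTORC1. IGF2R, also known as the cation-independent mannose 6-phosphate receptor, binds IGF2 and carries it to lysosomes without a kinase signal of its own. The IGFBP proteins hold IGFs outside the cell and are cut by proteases such as PAPPA, and IGFBP7 binds IGFs only weakly. In the developing brain IGF signalling is known to act on growth and survival of progenitors and neurons, and IGFBP2 and IGFBP5 are among the binding proteins made there.

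Promoters of the binding proteins with the highest levels are shown because these 4 genes followed different courses after day 0. The RefSeq table held 9 entries (250 bases before to 50 bases from the annotated start, GRCh37) for 7 of the 10 members, and all 9 matched the genome at 1 place. IGF2, IGFBP1 and IGFBP7 had no entry. The lines below run 5′ to 3′ on the gene's strand from 100 bases before the start to base 50 of the transcript, and capitals mark forms of the TATA box (the letters TATAAA, the variant TATATA and the looser variant TATTTAA), the GC box GGGCGG, which reads CCGCCC when it lies on the other strand, and the E-box CACGTG.
IGFBP2, chr2:217498043-217498192, plus strand: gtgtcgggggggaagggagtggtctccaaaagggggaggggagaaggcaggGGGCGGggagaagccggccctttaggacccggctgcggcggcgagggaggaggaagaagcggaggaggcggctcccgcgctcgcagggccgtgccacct
IGFBP3, chr7:45960822-45960971, minus strand: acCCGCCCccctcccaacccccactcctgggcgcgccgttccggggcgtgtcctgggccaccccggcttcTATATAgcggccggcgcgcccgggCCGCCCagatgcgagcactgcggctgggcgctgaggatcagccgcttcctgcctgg
IGFBP4, chr17:38599602-38599751, plus strand: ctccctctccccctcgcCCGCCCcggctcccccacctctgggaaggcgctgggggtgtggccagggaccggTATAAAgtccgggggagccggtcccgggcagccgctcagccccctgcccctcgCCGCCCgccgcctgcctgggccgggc
IGFBP5, chr2:217560223-217560372, minus strand: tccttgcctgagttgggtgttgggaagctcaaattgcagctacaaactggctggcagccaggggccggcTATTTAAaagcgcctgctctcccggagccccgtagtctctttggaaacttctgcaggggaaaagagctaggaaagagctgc
A TATA box form began 30 bases upstream of the start in IGFBP3, 29 bases upstream in IGFBP4 and 31 bases upstream in IGFBP5. Of 35116 promoters of the same length, 16.6% held any of the 3 forms on either strand, with TATAAA in 11.5%, TATATA in 3.99% and TATTTAA in 4.52%. The last form was added to the search after the IGFBP5 sequence had been read. No such form was found in the windows of IGFBP2, IGFBP6, IGF1R or IGF2R. The IGF2R window held 6 GC boxes and 3 E-boxes, motifs present in 45.0% and 7.26% of all promoters, and the IGF1R window held 2 GC boxes. CCAAT, present in 34.6% of promoters, was found only in the most downstream of the 3 IGFBP2 entries, which is not the one shown. The GC content was 74.7% for IGFBP3, 74.0% for IGFBP4 and 70.0% for IGFBP2 over the whole window, whereas IGFBP5, at 59.0%, lay near the median of 58.7%.

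Over the course IGFBP3, IGFBP4, IGFBP5 and IGFBP7 went further down than IGFBP2, while IGFBP1 and IGFBP6 were near 0 throughout. On day 18, 68.0% of coding records were at or below IGFBP5, 54.0% at or below IGFBP3, 53.2% at or below IGFBP4 and 29.6% at or below IGFBP7. Summed FPKM of IGFBP1 to IGFBP7 was 670 on day 0 and 162 on day 18, and the share held by IGFBP2 went from 60.3% to 91.7% of that sum. Of the 10 members, 7 had a mean over the days of 1 FPKM or more, as did 11793 of the coding records, and only these enter the counts below. IGFBP7 (mean 1.11) passed only through its early days, so its place in the counts of lower genes is partly fixed by this filter. IGF2, IGFBP1 and IGFBP6 did not pass. Changes are given as log2 differences of FPKM + 0.1, which understate the change of low genes, and a gene is counted when it changed at least 2-fold. From day 0 to day 18, 6 of the 7 members were at least 2-fold lower and none was higher, beside 37.5% of coding records past 2-fold in either direction, 29.9% lower and 7.57% higher.

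The median change of coding records over that interval was itself -0.60 on the log2 scale, and the summed FPKM of all records went from 413978 to 251156. Relative to that median, IGFBP3, IGFBP4, IGFBP5 and IGFBP7 remained more than 2-fold lower (-2.27 to -4.16), whereas IGF2R (-0.55) and IGFBP2 (-0.84) did not, which leaves 4 of 7 members. The share of coding records past 2-fold relative to their own median was not computed. All shares past 2-fold given here are on the deposited scale, so counts relative to the median have no share beside them. Same-day ratios between members, used further on, do not depend on the scaling of days.

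**Figure D1:**
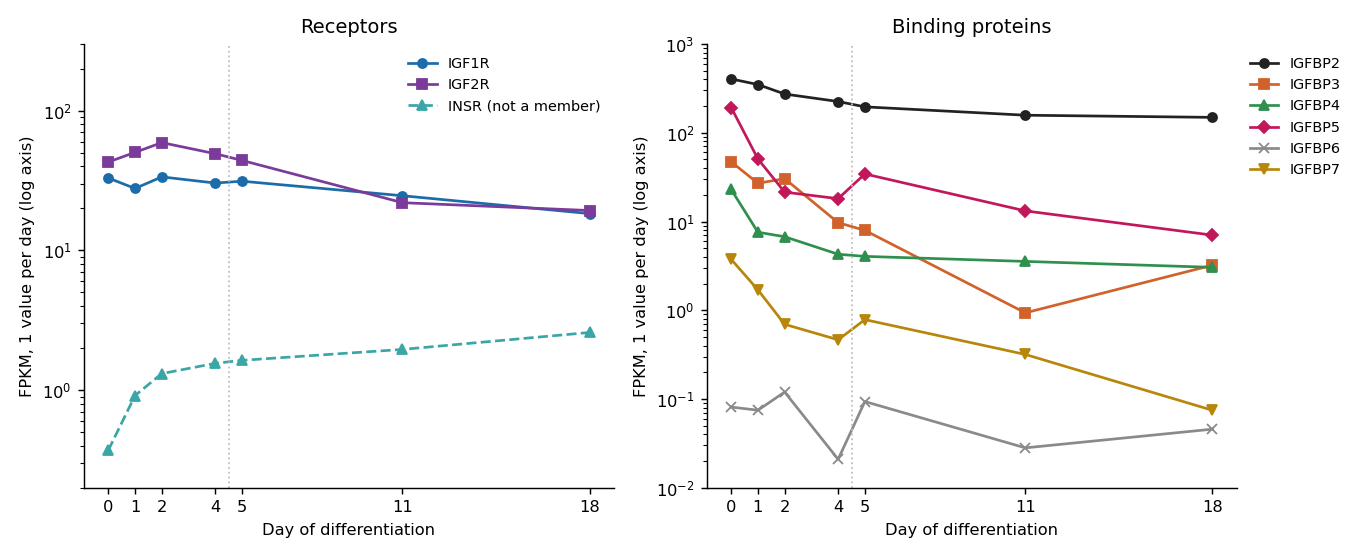
FPKM (log axis) of the IGF receptors (left) and binding proteins (right) against day of differentiation, 1 pooled value per day without error, with INSR drawn dashed for comparison and the dotted line marking the replating after day 4. IGFBP2 stayed above 149 FPKM on all 7 days while IGFBP5 went from 192 to 7.02, and IGF2 and IGFBP1, at or near 0, cannot be drawn on this axis.

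IGF2 (hg19 chr11:2150348-2182439, minus strand), the ligand of fetal growth, was listed at 0 on all 7 days. Its record merges IGF2, INS and INS-IGF2, and a 0 of this kind can be a failed estimate. The record of beta-actin and gamma-actin, genes that every cell uses, was also listed at 0 on all days, as were 1757 coding records in total. No statement on the presence of IGF2 is therefore possible from these values. IGF1, a ligand outside the 10 genes, had at most 0.00889 FPKM.

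IGF1R (chr15:99192761-99507758, plus strand), the signalling receptor, was the steadiest of the 7 members. Its FPKM was 33.0 on day 0, 27.7 on day 1, 33.6 on day 2, 30.3 on day 4, 31.3 on day 5, 24.6 on day 11 and 18.3 on day 18. The values of days 0 to 5 lay close together and those of days 11 and 18 were the lowest. The change from day 0 to day 18 was -0.84, or -0.24 relative to the median of coding records, and in no comparison did it pass 2-fold. The record begins 993 bases downstream of the RefSeq start.

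IGF2R (chr6:160390131-160527581, plus strand), the clearance receptor, had 42.9 FPKM on day 0, 50.3 on day 1, 59.1 on day 2, 49.2 on day 4, 44.1 on day 5, 21.9 on day 11 and 19.3 on day 18. It was highest on day 2 after the switch of medium. The largest step was the one from day 5 to day 11, a 2.01-fold lower FPKM. Because this step was just past 2-fold and the median of coding records moved by -0.16 in it, it lay below 2-fold once recentred (-0.84). The ratio of IGF1R to IGF2R was 0.768 on day 0, lowest on day 1 at 0.552, 1.12 on day 11 and 0.950 on day 18. Day 11 was the only day on which IGF1R had the higher FPKM of the pair.

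INSR, the insulin receptor that can form hybrids with IGF1R, moved the other way. It had 0.371 FPKM on day 0, 0.915 on day 1, 1.31 on day 2, 1.55 on day 4, 1.63 on day 5, 1.96 on day 11 and 2.59 on day 18, so each day was above the one before. The ratio of IGF1R to INSR was 88.8 on day 0, 30.3 on day 1 and 7.09 on day 18. The first 2 of these ratios rest on INSR values below 1 FPKM, at unknown depth. IGF1R still had the higher FPKM of both on every day. INSR and the pairs used for ratios were picked after their values had been seen.

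IGFBP2 (chr2:217498127-217529156, plus strand), a binding protein of fetal tissues and brain, had the highest FPKM of the 10 genes on every day. It had 404 FPKM on day 0, 349 on day 1, 273 on day 2, 225 on day 4, 196 on day 5, 158 on day 11 and 149 on day 18. Each day was below the one before, by less than 2-fold at each step, although the last step (-0.08) turned to +0.19 when recentred on the median, and the first (-0.21) was near 0 once the days were rescaled to the same total. It ranked 84th from the top among coding records on day 0 and 156th on day 18. Its day 18 against day 0 change of -1.44 was a 2.71-fold lower FPKM, and 15.3% of coding records changed as far down or further.

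IGFBP5 (chr2:217536829-217560272, minus strand), a binding protein that attaches to extracellular matrix, lies 7672 bases from IGFBP2, the 3′ ends of both facing each other. It had 192 FPKM on day 0, 50.7 on day 1, 21.4 on day 2, 18.1 on day 4, 34.3 on day 5, 13.2 on day 11 and 7.02 on day 18. Day 0 stood far above the other days, and day 5, after replating, was above days 2 and 4. The log2 change was -1.92 at day 1 against day 0 and -1.24 at day 2 against day 1, and 0.331% and 0.0339% of coding records changed as far down or further in those steps. It was +0.92 from day 4 to day 5, larger than or equal to that of 99.6% of coding records though under 2-fold. Over the whole course FPKM was 27.4-fold lower (log2 change -4.76), and its rank went from 250 on day 0 to 6469 on day 18.

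IGFBP7 (chr4:57897246-57976539, minus strand), a secreted relative found in vessel walls and matrix, followed the course of IGFBP5 at lower levels. It had 3.75 FPKM on day 0, 1.70 on day 1, 0.695 on day 2, 0.465 on day 4, 0.784 on day 5, 0.318 on day 11 and 0.0747 on day 18. As in IGFBP5, day 5 was above day 4. The Pearson correlation of log2(FPKM + 0.1) between IGFBP5 and IGFBP7 was 0.979 over the 7 days, the highest of the 21 pairs of members, with days that share their samples and scaling. FPKM was 50.2-fold lower on day 18 than on day 0, a log2 change of -4.46 with the pseudocount.

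IGFBP4 (chr17:38599676-38613981, plus strand), the main substrate of PAPPA, changed mostly at the first step. Its FPKM was 23.0 on day 0, 7.57 on day 1, 6.74 on day 2, 4.28 on day 4, 4.05 on day 5, 3.55 on day 11 and 3.05 on day 18. Only day 0 stood apart, and from day 4 on the values stayed within 3.05 and 4.28. The step from day 0 to day 1 was -1.59, a 3.03-fold lower FPKM, and no later step passed 2-fold.

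IGFBP3 (chr7:45951850-45960871, minus strand), the main IGF carrier of blood, first passed 2-fold in a later step than IGFBP4 and IGFBP5. It was the only member at least 2-fold higher on day 18 than on day 11. It had 47.0 FPKM on day 0, 27.0 on day 1, 30.4 on day 2, 9.70 on day 4, 7.95 on day 5, 0.936 on day 11 and 3.22 on day 18. The first 3 days were all above 26 FPKM, and day 11 was the lowest of all. The log2 change from day 0 to day 1 was -0.80, under 2-fold, and 5.99% of coding records changed as far down or further. It was -1.64 between days 2 and 4, -2.96 between days 5 and 11 and +1.68 between days 11 and 18, the last larger than or equal to that of 99.9% of coding records. Over the whole course FPKM was 14.6-fold lower.

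IGFBP6 (chr12:53491436-53496128, plus strand), which prefers IGF2 over IGF1, stayed between 0.0209 and 0.120 FPKM, too low to order the days. IGFBP1 (chr7:45927959-45933266, plus strand), made mainly in liver and decidua and the neighbour of IGFBP3 at 18583 bases, had 0.00977 FPKM on day 0 and was listed at 0 on 5 of the 7 days.

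**Figure D2:**
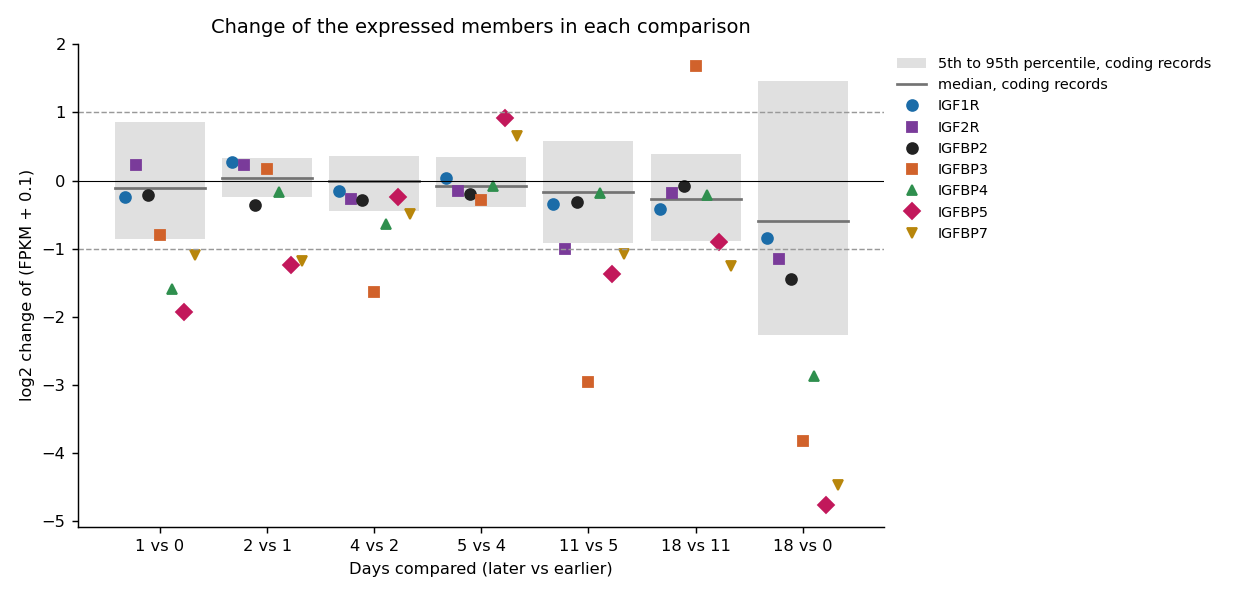
Log2 change of FPKM + 0.1 for the 7 members with a mean FPKM of at least 1 (symbols) in each comparison of a later with an earlier day, over the 5th to 95th percentile (grey) and median (grey line) of 11793 coding records, with dashed lines at 2-fold. IGFBP4, IGFBP5 and IGFBP7 lie below the lower dashed line at day 1 against day 0, and IGFBP3 lies there at days 4 and 11 and above the upper line at day 18.

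Step by step, the binding proteins made up nearly all of the changes past 2-fold. From day 0 to day 1, IGFBP4, IGFBP5 and IGFBP7 were lower, 3 of 7 members beside 6.69% of coding records past 2-fold. From day 1 to day 2, IGFBP5 and IGFBP7 were lower again, 2 of 7 beside 0.28%. From day 2 to day 4, IGFBP3 alone was lower, 1 of 7 beside 0.78%. Across replating no member passed 2-fold, beside 0.305% of coding records. From day 5 to day 11, IGF2R, IGFBP3, IGFBP5 and IGFBP7 were lower, 4 of 7 beside 6.04%, or 2 of 7 (IGFBP3 and IGFBP5) when recentred or with a pseudocount of 1. From day 11 to day 18, IGFBP7 was lower and IGFBP3 higher, 2 of 7 beside 4.56% in either direction and 0.839% in the higher direction, and recentring or a pseudocount of 1 left IGFBP3 alone. Day 11 was also used in place of day 18 as the late day, a choice made after seeing that day 18 had the lowest total FPKM. There, 5 members were at least 2-fold lower than on day 0, and IGF2R (-0.96) was not. The share of coding records past 2-fold between days 0 and 11 was not computed, so this count has no background beside it. Relative to the median of coding records, the 5 lay between -1.03 (IGFBP2) and -5.18 (IGFBP3). In the step from day 0 to day 1 IGFBP7 lay near the limit, at -1.10, and at -0.99 relative to the median.

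**Figure D3:**
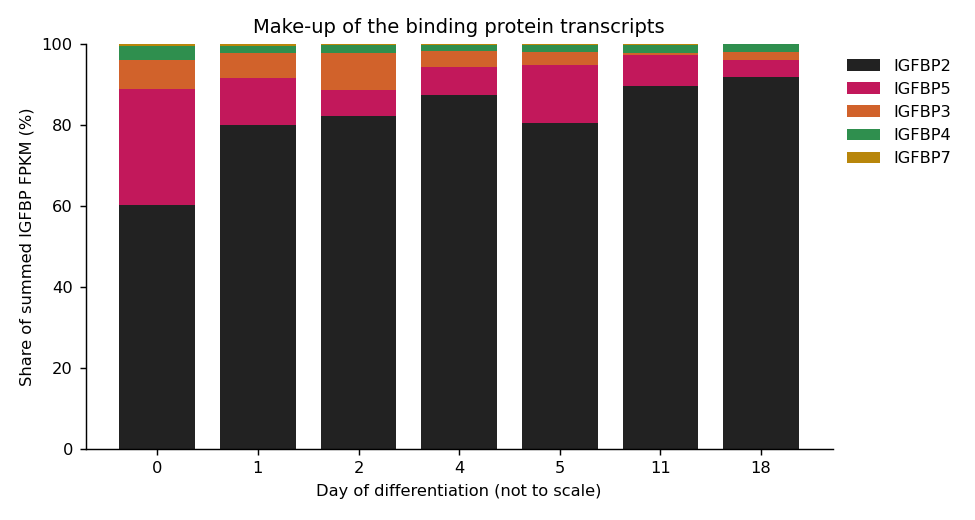
Share (%) of the summed FPKM of IGFBP1 to IGFBP7 held by each binding protein on each day, as stacked bars from 0, with IGFBP1 and IGFBP6 too small to draw. IGFBP2 held 60.3% on day 0 and 91.7% on day 18, and IGFBP5 held 28.7% and 4.32%, with 14.1% on day 5.

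The make-up of the binding protein transcripts changed mostly by day 1. The IGFBP2 share was 80.1% on day 1, 82.1% on day 2, 87.4% on day 4, 80.6% on day 5, 89.7% on day 11 and 91.7% on day 18. The IGFBP5 share was 28.7% on day 0, 11.6% on day 1, 6.45% on day 2 and 7.02% on day 4, and it was 14.1% on day 5. The ratio of IGFBP2 to IGFBP5 was 2.10 on day 0, 12.7 on day 2, 5.70 on day 5 and 21.2 on day 18. IGFBP3 was the second most abundant of the family on day 2, at 9.15% of the sum, when the ratio of IGFBP5 to IGFBP3 was lowest at 0.705. On day 11 that ratio was 14.1, and IGFBP3 held 0.533%. These shares compare FPKM within a day, so they do not depend on how days were scaled to each other.

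Records on the opposite strand overlapped most of the exon sequence of several members, and counting by strand is not stated for these libraries. Antisense records shared 97.4% of the exon bases of IGFBP3, 100% of those of IGFBP4, 97.6% of those of IGFBP5, 63.6% of those of IGF1R and 10.6% of those of IGF2R, so reads of both strands cannot be told apart there. The antisense record at IGFBP5 had 7.34 FPKM on day 0, 0.932 on day 1 and 0.324 on day 18, which was 3.82% of the IGFBP5 value on day 0 and 4.61% on day 18. At the other 4 genes the antisense records had at most 3.49% of the member's FPKM on days 0 and 18. IGFBP7 shared 5.95% of its exon bases with POLR2B, which had 59.0 FPKM on day 0 and 31.3 on day 18, far above IGFBP7 itself, and the part of those reads in the IGFBP7 values was not tested.

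The coding records with the most similar course were found by the Pearson correlation of log2(FPKM + 0.1) over the 7 days, a description over few points that share their libraries. IGFBP3 was closest to PFKP (r = 0.989), a phosphofructokinase of glycolysis, SLC2A3 (r = 0.989), a neuronal glucose transporter, and PVR (r = 0.988), a cell adhesion receptor. PFKP had 46.3 FPKM on day 0, 5.26 on day 11 and 13.0 on day 18, and SLC2A3 had 74.6, 6.59 and 14.5 on the same days. Both thus had the low value on day 11 and the higher one on day 18 that IGFBP3 had.

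IGFBP5 was closest to FREM1 (r = 0.987) and TGFBI (r = 0.986), both proteins of extracellular matrix, and then to IGFBP7. TGFBI had 4.97 FPKM on day 0, 0.556 on day 4, 1.06 on day 5 and 0.112 on day 18, again with a higher value after replating. IGFBP7 was closest to FN1 (r = 0.995), which encodes fibronectin, to CSNK1A1L (r = 0.993) and to SRPX (r = 0.992). FN1 had 77.4 FPKM on day 0, 26.3 on day 4, 31.8 on day 5 and 12.7 on day 18. CSNK1A1L is a near-identical copy of CSNK1A1, so its reads are uncertain.

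IGFBP4 was closest to AP1S2 (r = 0.997), a subunit of a clathrin adaptor, PTX3 (r = 0.996), a secreted pentraxin, and FAM46A (r = 0.996). PTX3 had 188.6 FPKM on day 0, 82.1 on day 1 and 41.2 on day 18. Among the records closest to IGFBP2 were POTEE (r = 0.984) and DNAJB6 (r = 0.983), a co-chaperone. POTEE contains actin sequence, and the actin record was listed at 0, so its values are uncertain. IGF1R was closest to HARS2, ENTPD4 and FBXO38 (r = 0.998, 0.998 and 0.992), and IGF2R to CDC42EP5, GHITM and NAT15 (r = 0.997, 0.996 and 0.996).

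The rest of the pathway was described with 8 lists of 76 genes, of which 75 had a record and 57 passed the filter. On day 18 against day 0, 19 of the 57 were at least 2-fold lower and 4 higher, and the median change was -0.67. These shares lay close to those of all coding records (29.9% lower, 7.57% higher, median -0.60). Relative to that median 11 were lower and 7 higher, on a scale for which no share of coding records was computed.

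The proteases that release IGF from binding proteins, with their regulators, had 4 of 8 genes lower and 1 higher, also relative to the median of coding records, and their own median change was -1.68. PAPPA, which cuts IGFBP4, had 16.5 FPKM on day 0 and 1.28 on day 18, and MMP2, a matrix protease, had 70.1 and 4.37. PRSS23 had 184.2 and 18.2. The 1 higher gene was STC2, an inhibitor of PAPPA, with 1.55 and 5.51, named after its value had been seen. The ratio of IGFBP4 to PAPPA was 1.39 on day 0, 0.519 on day 5 and 2.38 on day 18. ADAM12 (13.9 and 2.39 FPKM) was the fourth lower gene.

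Among ligands and other receptors, 2 of 6 genes passed the filter: INSR, higher, and IGFBPL1, a secreted relative of the binding proteins, lower, with 159.3 FPKM on day 0, 62.7 on day 4, 137.5 on day 11 and 61.4 on day 18. INSR (mean 1.48) passed only through its later days, so its place among the higher genes is partly fixed by the filter. Relative to the median IGFBPL1 was under 2-fold (-0.78). On day 11 the ratio of IGFBP2 to IGFBPL1 was at its lowest, 1.15. All 3 relatives with an IGFBP domain that passed the filter were lower: CYR61 (48.9 and 13.8), CTGF (131.4 and 37.6) and CRIM1 (20.3 and 8.44 FPKM on days 0 and 18). Relative to the median 2 of these 3 were lower. The 3 IGF2 mRNA-binding proteins were also past 2-fold, IGF2BP1 with 82.2 and 20.5, IGF2BP2 with 43.5 and 19.1 and IGF2BP3 with 42.2 and 16.5 FPKM, beside 29.9% of coding records lower. Relative to the median of coding records only 1 of them, IGF2BP1 (-1.40), remained so, with IGF2BP2 at -0.58 and IGF2BP3 at -0.75.

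Of 10 receptor substrates and adaptors, 4 were lower and 1 higher (relative to the median, 2 and 1). SHC1, an adaptor to RAS, had 91.8 FPKM on day 0 and 13.5 on day 18, and IRS1, the docking protein of the receptor, had 21.1 and 5.44. GRB14, an inhibitor of insulin receptor signalling, was higher, with 0.939 and 5.26, and PTPN1, a phosphatase that acts on the receptors, had 35.0 and 16.3. Of 12 genes of the PI3K and AKT arm, 2 were lower, INPPL1 (32.2 and 11.5) and AKT1 (90.7 and 42.1), beside 29.9% of coding records. Relative to the median neither remained past 2-fold (-0.88 and -0.50), and 0 of the 12 were lower and 1 higher. Of 9 mTORC1 genes 1 was lower on both scales, EIF4EBP1 (81.7 and 19.6), which restrains translation. Of 10 genes that AKT restrains or FOXO factors drive, FOXO1 itself was lower (7.26 and 1.06) and TXNIP higher (27.9 and 95.9), and relative to the median 1 was lower and 3 higher.

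**Figure D4:**
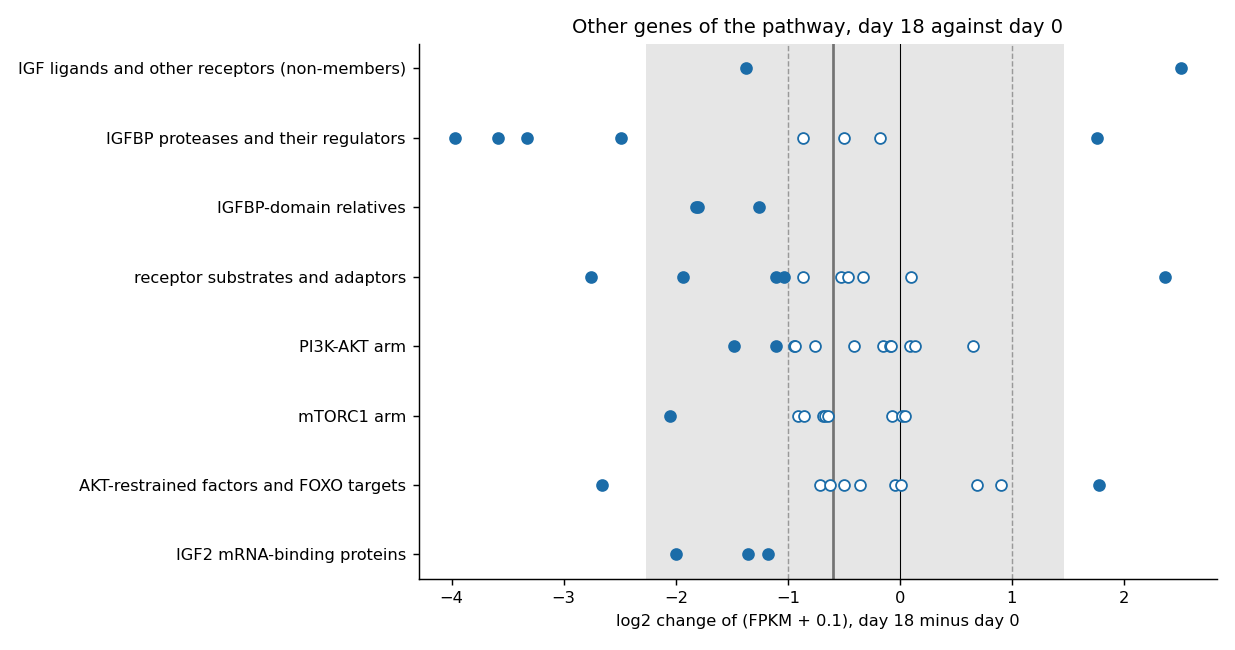
Log2 change of FPKM + 0.1 on day 18 against day 0 for the 57 other pathway genes that passed the filter, by list (filled circles: at least 2-fold), over the 5th to 95th percentile (grey) and median (grey line, -0.60) of coding records. The proteases hold 4 genes far to the left, including MMP2 and PAPPA, and INSR is the point farthest to the right.

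Markers of other cell types moved over the same days. In bulk RNA, fewer cells of a type and less RNA per cell cannot be told apart. The marker counts below stand beside 29.9% of coding records at least 2-fold lower on day 18 and 7.57% higher. These shares hold for the deposited scale, and none was computed relative to the median. All 8 neural progenitor markers passed the filter, with 2 at least 2-fold lower on day 18 (NES, 513.5 and 180.4 FPKM, and PROM1, 38.8 and 5.06) and 1 higher (PAX6, 4.31 and 10.4). Relative to the median of coding records NES (-0.91) was under 2-fold, which left 1 lower, and 2 were higher, PAX6 and FABP7 (1.00). SOX2 had 126.5 and 66.1. Of the neuron markers, 6 of 7 were at least 2-fold higher on day 18, also relative to the median. The exception was GAP43, with 192.7 FPKM on day 0 and 173.4 on day 18. The sum of the 7 went from 342 to 1256 FPKM, with STMN2 going from 32.3 to 727.4. ELAVL4 (mean 1.59) passed the filter only through its later days, so its place among the higher genes is partly fixed by the filter. Of the 7 mesenchymal, meningeal and pericyte markers that passed the filter, 5 were lower, or 4 relative to the median. PDGFRB, in a record merged with CSF1R, was among them. It passed only through day 0 (2.99 FPKM), so its place is partly fixed by the filter. All 10 markers of this list summed to 298.5 FPKM on day 0 and 39.7 on day 18, most of it COL3A1 (238.0 and 30.5). COL1A1 was listed at 0 on all days although COL1A2 had 33.6 on day 0. Of 4 endothelial markers with a record only KDR passed the filter, with 23.8 FPKM on day 0, 4.80 on day 1 and 0.700 on day 18. The 4 summed to 28.9, 6.29 and 0.962 FPKM on these days, most of it KDR. Of those under the filter, CDH5 had 2.34 and TEK 2.50 on day 0, and 0.0250 and 0.102 on day 18. CLDN5 did not follow them, with 0.259 on day 0, 0.502 on day 1, 0.661 on day 11 and 0.135 on day 18. Of 6 choroid plexus markers 1 passed the filter, AQP1, in a record merged with FAM188B and INMT. That record had 2.17 FPKM on day 0, 3.32 on day 4 and 2.08 on day 18. The defining marker TTR was at or near 0 on all days. Of 6 astrocyte markers 3 passed the filter, SLC1A3 higher (16.2 and 63.1 FPKM) and GJA1 (78.3 and 15.0) and S100B (8.68 and 4.25) lower, while GFAP had at most 0.186. Relative to the median S100B (-0.42) was under 2-fold. Of 4 pluripotent cell markers with a record 1 passed, DPPA4 (9.72 and 2.25), while POU5F1 had at most 0.108 and TDGF1 was listed at 0. The part of these cell types in the values of IGFBP3, IGFBP4, IGFBP5 and IGFBP7 was not tested.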

How the data were processed

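RNA of 20 samples was sequenced as 101 base paired-end reads on a HiSeq instrument from TruSeq poly(A) libraries. The authors used TopHat2 to align reads to hg19 and estimated expression with Cuffdiff2; versions are not given in the sources used here. The authors deposited FPKM values, 1 per record and day over that day's samples, and columns of their own comparisons (fold changes, test statistics, p and q values), which were not used. No column holds a single sample, so replicates could not be compared. The FPKM of 4 records, none a member, differed between both deposited tables.

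Members were taken by symbol, 1 record each; 1 is a merged record. Changes are log2 differences of FPKM + 0.1, counted at 2-fold among records whose mean FPKM was 1 or more. The rule for named genes took all 10 members, up to 4 genes per pathway list with the largest change past 2-fold (STC2 was named beyond it), and the 3 records most correlated with each expressed member, 1 of which is not reported here. The members and lists were chosen with earlier results of these data known. Pseudocount, scaling, filter, fold and record choice were varied. The code was tested on simulated data. Python 3.11.15, pandas 2.3.3 and numpy 2.4.6 were used.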

Additional observations from a re-analysis of the deposited data

How the results depend on the processing

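Of 245 values of single members under other settings, 223 stayed on their side of the fold, 15 were no longer past it and 7 newly passed it. The 1.5-fold setting keeps each value, so it could only add calls. A pseudocount cannot turn a sign either, so only recentring and rescaling could do so. No change past the fold turned its sign, but 8 values under it did when recentred or rescaled, all within -0.21 and 0.27. These were IGF2R, IGFBP2 and IGFBP4 at day 18 against day 11 in both settings, and with rescaling IGFBP2 at day 1 against day 0 and IGFBP4 across replating. With a pseudocount of 1, members past 2-fold numbered 1 between days 1 and 2, 2 between days 5 and 11 and 1 between days 11 and 18. With changes recentred on the median of coding records, they numbered 2 for day 11 against day 5 and 1 for day 18 against day 11. With each day rescaled to the same total, 1 member (IGFBP5, +1.03) passed 2-fold across replating, and the median change from day 0 to day 18 was 0.11 in place of -0.60. At 1.5-fold, 4 members passed from day 0 to day 1, with IGFBP3 added, and 2 passed from day 2 to day 4. At the same fold, 2 passed across replating (IGFBP5 and IGFBP7, both higher), and 38 pathway genes passed from day 0 to day 18 in place of 23. From day 0 to day 18, IGF2R and IGFBP2 were under 2-fold when recentred (-0.55 and -0.84) or rescaled (-0.43 and -0.72). The cause was not tested. A pseudocount of 0.01 changed no call of a member. Shares of all coding records past the fold were not computed under these other settings. Summing over records could change none, since each member has 1 coding record, and its values are not counted here.

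No paired analysis was possible because the tables hold 1 value per day, and no replicate could be left out for the same reason. The depth is unknown, so values such as 0.0747 FPKM for IGFBP7 on day 18 carry no interval.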

Other observations

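Several relatives of the binding proteins followed courses that the comparison of day 18 with day 0 does not show, and they were picked after their values had been seen. CTGF, a matrix-associated growth regulator, had 131.4 FPKM on day 0, 296.4 on day 2, 226.3 on day 4 and 35.6 on day 11, and CYR61 had 48.9, 98.4, 103.9 and 18.2 on the same days. CTGF was thus highest on day 2 and CYR61 on day 4, when IGFBP5 was already below its day 0 value. STC2, an inhibitor of PAPPA, had 1.55 FPKM on day 0, 9.84 on day 1, 12.0 on day 2, 0.809 on day 11 and 5.51 on day 18, while STC1, its relative with the same action, had 3.11 on day 0, 0.295 on day 1, 0.583 on day 11 and 2.18 on day 18. Both stanniocalcins were higher on day 18 than on day 11, as IGFBP3 was.

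H19, the imprinted noncoding neighbour of IGF2, had 2.20 FPKM on day 0, 0.614 on day 1, 0.207 on day 2 and 0.0687 on day 18. IGF2AS, antisense to IGF2, was listed at 0 on all days, as was the merged IGF2 record.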
